A study of Mus musculus with 4 samples.

Results

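The 10 genes described here are *Atf4*, *Ddit3* and *Trib3*, which belong to the integrated stress response, *Asns*, which makes asparagine, and the enzymes of serine and one-carbon metabolism *Phgdh*, *Psat1*, *Psph*, *Shmt1*, *Shmt2* and *Mthfd2*. The rule names them and uses no measured value, but they and the related lists were chosen with earlier results of these data known. All 10 were found among the 55359 Ensembl genes of the count table. T8 is a leukemia cell line from 1 B-progenitor tumor of an *Irf4*-/- mouse on the C57Bl/6 background, so all libraries share the *Irf4*-/- genotype and a single tumor. Cells received a retrovirus coding for GFP only (EV-RV) or for GFP together with IRF4 (IRF4-RV). Viable cells were taken for bulk RNAseq 24 h later, with 2 libraries per group, which the design text calls biological replicates. Whether GFP+ cells were sorted is not given in the sources used here. The culture and transduction protocols of the labels mention T11, whereas the titles and the tissue field give T8.

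ATF4 is a transcription factor whose mRNA is translated preferentially when eIF2α is phosphorylated, which happens under amino acid shortage, ER stress, heme deficiency or double-stranded RNA. It is known to activate genes for amino acid synthesis and uptake, among them *Asns*, *Phgdh*, *Psat1*, *Shmt2* and *Mthfd2*, as well as the stress genes *Ddit3* and *Trib3*. PHGDH, PSAT1 and PSPH convert a glycolytic intermediate to serine. The SHMT enzymes split serine into glycine and a folate-bound carbon unit, and the folate cycle passes this unit on to purines, thymidylate and methionine. Folate metabolism is the target of methotrexate in lymphoblastic leukemia, and low ASNS is known for its link to asparaginase sensitivity. Since ATF4 is controlled at translation, its mRNA level does not give the level of the protein.

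The libraries held 31230223 to 37817752 counts. Levels are given as CPM, counts relative to the TMM-scaled library total, on which 3 counts, the floor used here, equal 0.0824 to 0.0951 CPM for counting error only. *Irf4* was at 241.5 ± 0.584 CPM with EV-RV and 2657 ± 234.1 CPM with IRF4-RV (SD, n = 2). Gene counts separate neither vector reads nor reads from a disrupted locus. The 10 B-lineage markers summed to 3772 and 3906 CPM in the EV-RV libraries and to 2946 and 2896 CPM in the IRF4-RV libraries. Of 9 that passed the filter, *Vpreb1* and *Igll1* of the surrogate light chain were lower (log2 fold change -1.49 and -1.30), *Blnk* and *Ptprc* higher (1.04 and 0.53) and 5 not called, among them *Cd79a* (-0.015). The log2 fold change was negative for 7 of the 9 and positive for 2, with a median of -0.09. For 7 of the 9 both IRF4-RV libraries lay below both EV-RV libraries, against 29.9% of all genes. The part of this shift in the changes below was not tested. Stromal markers differed between libraries within both groups. Their sum over 11 genes was 51.7 and 97.9 CPM in EV-RV replicates 1 and 2 and 51.2 and 240.5 CPM in IRF4-RV replicates 1 and 2, with 10 of 11 highest in the last library and none at 0 throughout. The methods say that T8 cells were first grown on ST2 stromal cells and later without them. The replicate 1 libraries were thus nearly equal in stromal markers, and for the 10 genes changes are also given between these 2 libraries alone. The sum of 13 myeloid markers was 1.4 to 1.59 CPM with EV-RV and 8.87 to 10.6 CPM with IRF4-RV, carried by *Mrc1* and *Ly6g*, while *Adgre1*, *S100a8* and *S100a9* were at 0. Its part in the changes below was not tested. In bulk samples, fewer cells of a type and less RNA per cell cannot be told apart.

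Per exonic length, *Phgdh* was the highest of the 10 genes and *Asns* by far the lowest. These levels are RPKM, the CPM per kilobase of exon. With EV-RV the mean levels were 245.2 RPKM for *Phgdh*, 183.4 for *Shmt2*, 126.6 for *Psat1*, 76.9 for *Atf4*, 43.5 for *Shmt1*, 33.4 for *Mthfd2*, 9.15 for *Psph*, 2.47 for *Ddit3*, 2.19 for *Trib3* and 0.17 for *Asns*. *Ddit3* and *Trib3* overlapped in this order, since *Trib3* was at 1.79 and 2.58 RPKM in the EV-RV libraries, and all other neighbours were apart. With IRF4-RV the order was the same except that *Mthfd2*, at 26.6 RPKM, and *Shmt1*, at 25.8 RPKM, changed places and overlapped.

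**Figure D1:**
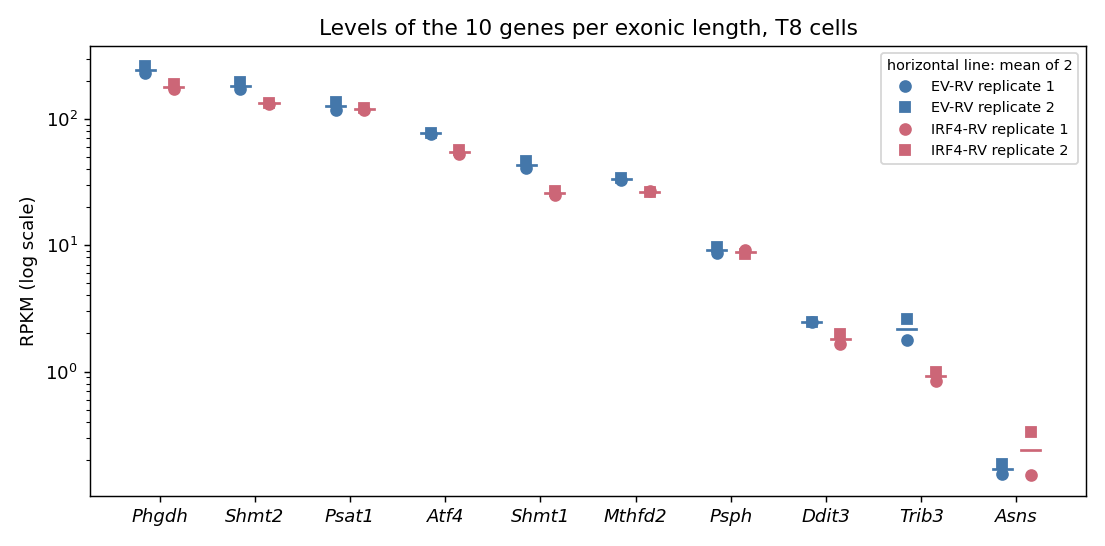
Levels of the 10 genes in RPKM on a log axis, with each library as a point, EV-RV in blue, IRF4-RV in red, replicate 1 as a circle, replicate 2 as a square and the mean of 2 libraries as a line. *Phgdh*, *Shmt2* and *Psat1* lie highest, between 116.9 and 259.9 RPKM, *Asns* reaches at most 0.331 RPKM, and *Asns* is the 1 gene with a higher mean in IRF4-RV.

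With IRF4-RV, 6 of the 10 genes fell, namely *Trib3*, *Shmt1*, *Atf4*, *Shmt2*, *Phgdh* and *Mthfd2*, and none was called higher. The test was edgeR's quasi-likelihood test over the 14637 genes that passed the filter on low counts, all 10 among them, at the study's FDR cutoff of 0.1, which called 29.7% of all genes. Called lower were 6 of 10, against 13.7% of all genes tested. Called higher were 0 of 10, against 16%, and 0 of 10 as well with DESeq2, against 13.8%. At an unadjusted cutoff of 0.05, the number higher was also 0, but the share of all genes at that cutoff was not determined. The log2 fold change was negative for 9 of the 10 genes, against 7203 of the 14637 genes tested. The 1 positive value was that of *Asns*, with 14 to 33 counts in a library, so the counts of 0 higher add little. Both IRF4-RV libraries lay below both EV-RV libraries in CPM for 7 of the 10 genes, against 29.9% of all genes. The median log2 fold change of the 10 genes was -0.44, against 0.0073 for all genes tested. Of all calls 53.8% were higher with IRF4-RV, but 37.8% when counts were scaled to library size only, which put the median of all genes at -0.083. That scaling called *Ddit3* as well (log2 fold change -0.53, edgeR adjusted p = 0.0913), so that 7 of 10 genes were lower, against 19.6% of all genes.

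**Figure D2:**
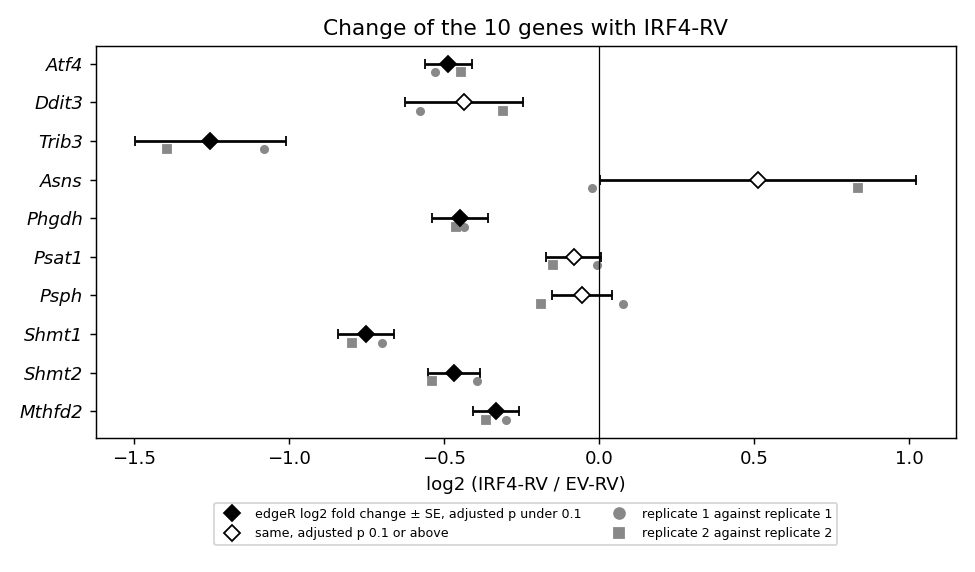
Log2 fold change of each gene with its standard error (diamonds, filled where the edgeR adjusted p is under 0.1), with the log2 ratios between libraries of the same replicate number in grey. *Trib3* has the most negative value, *Psat1* and *Psph* lie near 0, and the grey points of *Asns* are far apart, at -0.022 and 0.84.

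*Atf4* (ENSMUSG00000042406) occupies chromosome 15 from 80255184 to 80257541 (GRCm38, plus strand), and all positions given are of this build. The EV-RV libraries held 6010 and 5761 of its counts, the IRF4-RV libraries 4233 and 4886. Both IRF4-RV libraries were below both EV-RV libraries, at 129.6 ± 6.52 against 181.4 ± 1.83 CPM (SD, n = 2). The log2 fold change was -0.49 (SE 0.0751, edgeR adjusted p = 0.00318), or 28.6% less mRNA. It was -0.53 between the replicate 1 libraries and -0.45 between the replicate 2 libraries.

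*Ddit3* (ENSMUSG00000025408, chromosome 10, 127290774 to 127296288, plus strand) encodes CHOP, a transcription factor that promotes cell death under lasting ER stress. EV-RV libraries held 141 and 133 counts and IRF4-RV libraries 96 and 124. The groups did not overlap, at 4.22 ± 0.00546 CPM against 3.12 ± 0.404 CPM (SD, n = 2), but the log2 fold change of -0.43 (SE 0.19) did not pass the test (edgeR adjusted p = 0.15). Between the replicate 1 libraries its log2 ratio was -0.58, and between the replicate 2 libraries -0.31. A second Ensembl gene of this name had 0 counts in all 4 libraries, and *Ddit3* shares 68 exonic bases with *Mars* on the opposite strand. How counting treated the strand is not given, so reads over shared bases cannot be assigned.

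*Trib3* (ENSMUSG00000032715, chromosome 2, 152337422 to 152344032, minus strand) encodes a pseudokinase that is induced by ATF4 and CHOP and restrains ATF4. EV-RV libraries held 127 and 173 counts, IRF4-RV libraries 61 and 76, and the groups did not overlap. Its level was 4.65 ± 1.19 CPM with EV-RV and 1.94 ± 0.203 CPM with IRF4-RV (SD, n = 2). Its log2 fold change of -1.25 was the most negative of the 10 genes (SE 0.244, edgeR adjusted p = 0.0087). The log2 ratio was -1.08 between the replicate 1 libraries and -1.39 between the replicate 2 libraries.

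ATF4 binds with C/EBP proteins to the C/EBP-ATF response element (CARE), here searched as TGATGNAA on both strands. The windows came from RefSeq (GRCm38.p6) and reach from 250 bases before to 50 bases after each gene's start, and all 10 genes had one. The motif was found for *Asns* and *Trib3*, 2 of 10 genes, against 4.51% of 27025 genes with a window. With any base at the third position (TGNTGNAA, chosen after the windows were seen, and covering the stricter motif), 4 of 10 genes had a match, *Phgdh* and *Psat1* being added, against 16.6% of all genes. The 30 bases around each match are shown so that the motif can be compared between genes that fell, *Trib3* and *Phgdh*, and genes that were not called. They are read along the strand of the gene, with the match in capitals. *Asns* is shown from chr6:7693214-7693243, the *Trib3* matches from chr2:152344075-152344104 (A) and chr2:152344028-152344057 (B), *Psat1* from chr19:15925177-15925206 and *Phgdh* from chr3:98340074-98340103, all on the minus strand.
Asns: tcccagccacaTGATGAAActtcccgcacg
Trib3 A: cgggtcacagaTGGTGCAAtcccgggccgc
Trib3 B: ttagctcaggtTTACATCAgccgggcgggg
Psat1: acgcgggtggcTGGTGCAAtcccctgctct
Phgdh: aagggcttcacTGCTGGAAgtgtagtctgt
The match of *Asns* begins 23 bases before the RefSeq start and *Trib3* A 33 bases before it, whereas *Trib3* B holds the motif on the opposite strand and begins at base 15 after the start. The same letters, TGGTGCAA, stand in *Trib3* A and in *Psat1*, which begins 136 bases before its start. The *Phgdh* match begins 123 bases before the start. A match describes the letters only, and elements outside these windows were not searched.

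*Asns* (ENSMUSG00000029752, chromosome 6, 7675169 to 7693254, minus strand), the asparagine synthetase, was barely detected. EV-RV libraries held 14 and 16 counts and IRF4-RV libraries 14 and 33, each above the floor of 3. Replicate 2 of IRF4-RV stood apart from the 3 other libraries, and the groups overlapped. The level was 0.464 ± 0.0621 CPM with EV-RV and 0.66 ± 0.349 CPM with IRF4-RV (SD, n = 2). Its log2 fold change of 0.51 (SE 0.51) did not pass the test (edgeR adjusted p = 0.526), and without IRF4-RV replicate 2 it was -0.16 (edgeR adjusted p = 0.929). That library also had the highest stromal markers, at 240.5 CPM in sum against 51.2 to 97.9 CPM in the others. The part of stromal RNA in the *Asns* counts was not tested.

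**Figure D3:**
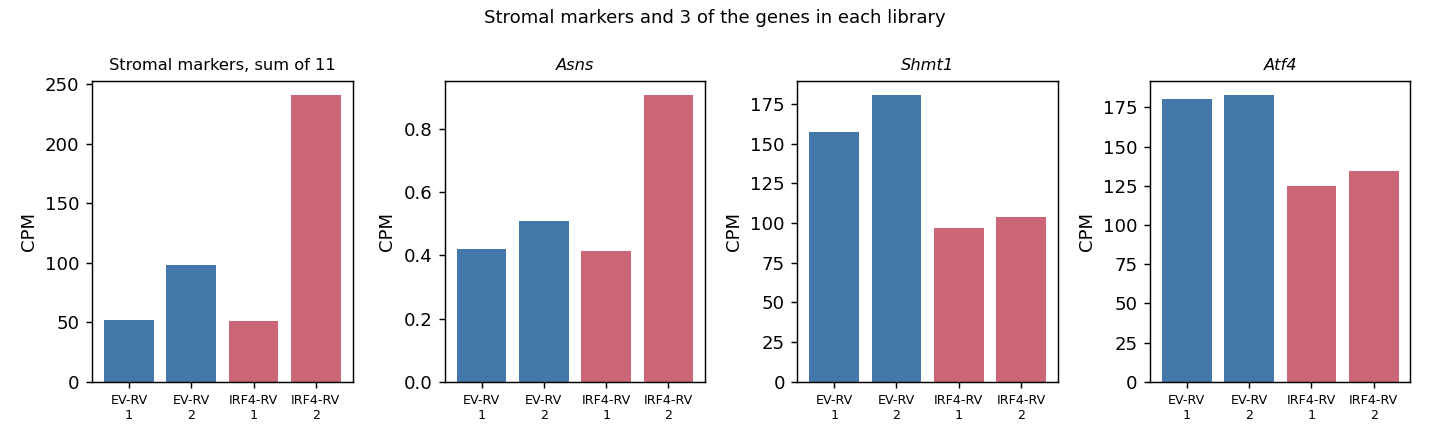
Summed CPM of 11 stromal markers and CPM of *Asns*, *Shmt1* and *Atf4* in each of the 4 libraries (EV-RV blue, IRF4-RV red, axes from 0). The stromal markers and *Asns* are both highest in IRF4-RV replicate 2, whereas *Shmt1* and *Atf4* are lower in both IRF4-RV libraries than in both EV-RV libraries.

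Of the 3 enzymes of serine synthesis, *Phgdh* was called and *Psat1* and *Psph* were not. *Phgdh* (ENSMUSG00000053398, chromosome 3, 98313170 to 98339990, minus strand), the dehydrogenase of the entry step, had 19117 and 20370 counts in EV-RV libraries and 14363 and 17090 in IRF4-RV libraries. The groups did not overlap, at 609.5 ± 51.7 CPM with EV-RV and 446.8 ± 32.1 CPM with IRF4-RV (SD, n = 2). The log2 fold change was -0.45 (SE 0.0896, edgeR adjusted p = 0.00982), with a ratio of -0.43 between the replicate 1 libraries and of -0.46 between the replicate 2 libraries. A processed pseudogene, *Phgdh-ps1*, held 36 to 55 counts, at most 0.279% of those of *Phgdh*.

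*Psat1* (ENSMUSG00000024640, chromosome 19, 15904678 to 15947337, minus strand), the aminotransferase of the next step, had 16679 and 18192 counts in EV-RV libraries and 16844 and 18958 in IRF4-RV libraries. In CPM the groups overlapped, at 538.4 ± 54.5 and 509 ± 16.5 (SD, n = 2), with a log2 fold change of -0.08 (SE 0.0879, edgeR adjusted p = 0.565). *Psph* (ENSMUSG00000029446, chromosome 5, 129765558 to 129787449, minus strand), the phosphatase that releases serine, had 1255 and 1313 counts in EV-RV libraries and 1345 and 1332 in IRF4-RV libraries. Here too the groups overlapped in CPM, with a log2 fold change of -0.05 (SE 0.096, edgeR adjusted p = 0.736). *Psph* shares 452 exonic bases with *Cct6a* on the opposite strand. Without EV-RV replicate 2 both values turned positive, at 0.028 for *Psat1* and 0.022 for *Psph*, and *Psph* was at 0.0078 without IRF4-RV replicate 2. Between the replicate 1 libraries the log2 ratio was -0.0074 for *Psat1* and 0.078 for *Psph*. Between the replicate 2 libraries it was -0.15 for *Psat1* and -0.19 for *Psph*. The ratio of *Phgdh* to *Psat1*, each level per exonic length, was 1.96 and 1.92 in the EV-RV libraries and 1.46 and 1.54 in the IRF4-RV libraries. The ratios of the groups did not overlap, but an exact permutation test of 2 against 2 libraries cannot give a p below 0.333.

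Both serine hydroxymethyltransferases fell. *Shmt1* (ENSMUSG00000020534, chromosome 11, 60788104 to 60811718, minus strand), the cytosolic form, had 5241 and 5691 counts in EV-RV libraries and 3273 and 3784 in IRF4-RV libraries. Its level was 168.8 ± 16.6 CPM with EV-RV and 100.3 ± 5.16 CPM with IRF4-RV (SD, n = 2), which is 40.6% less by the fit. The log2 fold change was -0.75 (SE 0.0918, edgeR adjusted p = 0.00107).

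*Shmt2* (ENSMUSG00000025403, chromosome 10, 127517123 to 127522444, minus strand), the mitochondrial form, had 17830 and 19106 counts in EV-RV libraries and 13796 and 15208 in IRF4-RV libraries. Its level was 570.2 ± 50.6 CPM with EV-RV and 412.5 ± 7.33 CPM with IRF4-RV (SD, n = 2). The log2 fold change was -0.47 (SE 0.0831, edgeR adjusted p = 0.00597). For neither gene did the groups overlap, and between the replicate 1 libraries the log2 ratios were -0.70 for *Shmt1* and -0.39 for *Shmt2*. Per exonic length, the level of *Shmt2* exceeded that of *Shmt1* 4.25-fold and 4.19-fold with EV-RV, and 5.26-fold and 5.02-fold with IRF4-RV. These ratios did not overlap between the groups, and the same limit of 0.333 holds for their exact permutation test. *Shmt1* shares 184 exonic bases with *Smcr8* and *Shmt2* 32 with *Ndufa4l2*, each on the opposite strand.

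*Mthfd2* (ENSMUSG00000005667, chromosome 6, 83305691 to 83325908, minus strand) encodes a mitochondrial dehydrogenase and cyclohydrolase that oxidizes the carbon unit released by SHMT2. EV-RV libraries held 3817 and 3743 counts and IRF4-RV libraries 3148 and 3360. The groups did not overlap, at 116.6 ± 3.05 CPM with EV-RV and 92.6 ± 0.467 CPM with IRF4-RV (SD, n = 2). The log2 fold change of -0.33 (SE 0.0734, edgeR adjusted p = 0.0152) was the smallest among the 6 called genes. Without IRF4-RV replicate 2 it missed the cutoff (log2 fold change -0.32, edgeR adjusted p = 0.107), which left 5 of the 10 genes called lower, against 10.4% of all genes. The log2 ratio was -0.30 between the replicate 1 libraries and -0.36 between the replicate 2 libraries.

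Among other genes of serine and folate metabolism, more were called lower than higher. Of 43 listed, 29 passed the filter, of which 14 were lower (48.3%, against 13.7% of all genes), 4 higher (13.8%, against 16%) and 11 not called, with a median log2 fold change of -0.26. *Gart*, a purine enzyme that uses folate-bound carbon, was at 332.9 ± 19.7 CPM with EV-RV and 212.5 ± 7.82 CPM with IRF4-RV (SD, n = 2; log2 fold change -0.65, edgeR adjusted p = 0.000952). *Gcsh*, the carrier protein of glycine cleavage, had a log2 fold change of -0.86 (edgeR adjusted p = 0.00173), and *Fpgs*, which retains folates in the cell by adding glutamates, of -0.83 (edgeR adjusted p = 0.00174). *Gart* shares 1014 exonic bases with an antisense gene.

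The lower genes included enzymes and carriers of the cytosolic and the mitochondrial folate pathway, and the following were chosen after their values were seen. The cytosolic enzyme *Mthfd1* had a log2 fold change of -0.54, its mitochondrial relative *Mthfd1l* of -0.40, the mitochondrial folate carrier *Slc25a32* of -0.49 and the reduced folate carrier *Slc19a1* of -0.58. Their edgeR adjusted p-values lay between 0.00179 and 0.00648, and each gene also passed the cutoff whichever single library was left out.

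The genes of this list called higher were at low levels. *Sfxn3*, a mitochondrial serine transporter at 6.4 CPM with EV-RV, rose by 0.65 on the log2 scale (edgeR adjusted p = 0.00782). Its relative *Sfxn1*, chosen after its values were seen, was at 187.7 CPM with EV-RV and was called lower (log2 fold change -0.24, edgeR adjusted p = 0.0474). *Srr*, the serine racemase, rose by 0.72 (edgeR adjusted p = 0.0559), but shares 1240 exonic bases with *Tsr1* on the opposite strand and missed the cutoff without EV-RV replicate 2 and without IRF4-RV replicate 2 (edgeR adjusted p = 0.204 and 0.147). It also missed the cutoff with library size only (edgeR adjusted p = 0.107) and with DESeq2, the study's tool (adjusted p = 0.106). *Aldh1l1*, a cytosolic formyl-folate dehydrogenase (picked with its values in view), had 15 and 16 counts in EV-RV libraries and 27 and 72 in IRF4-RV libraries (log2 fold change 1.53, edgeR adjusted p = 0.0674). Its log2 fold change was 0.74 without IRF4-RV replicate 2, the library with the most stromal markers (edgeR adjusted p = 0.515), and it also missed the cutoff without EV-RV replicate 1 or 2 (edgeR adjusted p = 0.213 and 0.167). The part of stromal RNA was not tested.

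**Figure D4:**
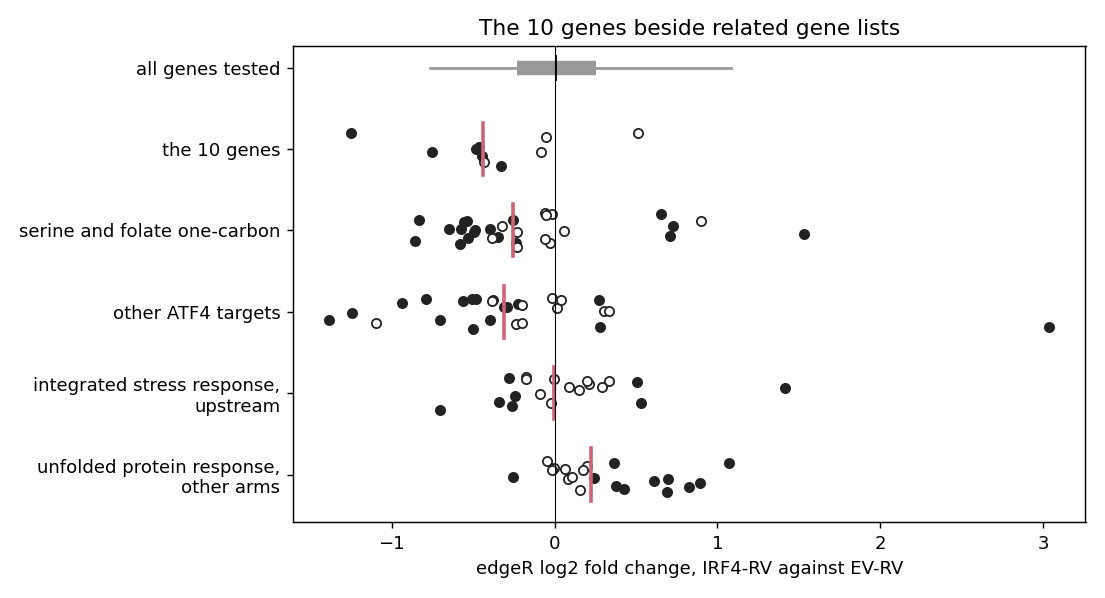
EdgeR log2 fold changes of the 10 genes and of 4 related lists, below a bar for the spread of all genes tested. Each gene that passed the filter is a point (filled where called, vertical placement arbitrary), and the list's median is a red line. The medians are -0.44 for the 10 genes, -0.26 for serine and folate genes, -0.31 for other ATF4 targets, -0.0031 for upstream genes of the integrated stress response and 0.22 for other arms of the unfolded protein response.

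Of 34 other known ATF4 targets, 3 of them also in the folate list and *Ppp1r15a* also in the upstream list below, 27 passed the filter. Of these, 14 were lower (51.9%, against 13.7% of all genes), 3 higher (11.1%, against 16%) and 10 not called, with a median log2 fold change of -0.31. *Chac1*, which degrades glutathione, had 72 and 89 counts in EV-RV libraries and 27 and 40 in IRF4-RV libraries (log2 fold change -1.39, edgeR adjusted p = 0.0157), but missed the cutoff without EV-RV replicate 2 (-1.18, edgeR adjusted p = 0.103). *Jdp2*, a bZIP repressor, had a log2 fold change of -1.24 (edgeR adjusted p = 0.000996), and *Eif4ebp1*, an inhibitor of cap-dependent translation, of -0.94 (edgeR adjusted p = 0.000273). *Atf3*, a stress-induced repressor of the ATF family, changed in the other direction, with 99 and 88 counts in EV-RV libraries and 741 and 929 in IRF4-RV libraries. It rose by 3.04 on the log2 scale (SE 0.137, edgeR adjusted p = 8.12e-06). The mitochondrial enzyme *Pck2* and the tryptophanyl-tRNA synthetase *Wars* rose by 0.28 each (edgeR adjusted p = 0.0289 and 0.0284). Without IRF4-RV replicate 1 and without IRF4-RV replicate 2 both missed the cutoff (edgeR adjusted p = 0.105 and 0.258 for *Pck2*, 0.191 and 0.165 for *Wars*). *Cebpg*, which encodes a dimer partner of ATF4 and was chosen after its values were seen, had a log2 fold change of 0.012 (edgeR adjusted p = 0.936).

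Of 19 genes upstream of ATF4, all tested, 3 were higher (15.8%, against 16% of all genes), 5 lower (26.3%, against 13.7%) and 11 not called, with a median log2 fold change of -0.0031. The share called higher was thus that of all genes, and the 3 genes all encode eIF2α kinases. *Eif2ak2*, which encodes PKR, the interferon-induced sensor of double-stranded RNA, was at 27.5 ± 7.97 CPM with EV-RV and 73.2 ± 4.06 CPM with IRF4-RV (SD, n = 2; log2 fold change 1.41, edgeR adjusted p = 0.00108). *Eif2ak1*, for the heme-regulated kinase, rose by 0.53 (edgeR adjusted p = 0.00466) and *Eif2ak3*, for PERK of the ER, by 0.51 (edgeR adjusted p = 0.0161). *Eif2ak4*, for the remaining kinase GCN2, had a log2 fold change of -0.17 and was not called (edgeR adjusted p = 0.521). *Eif2ak1* shares 487 exonic bases with *Aimp2* and *Eif2ak3* 485 with an unnamed transcript, both on the opposite strand. Among the lower genes, *Eif2b3* of the exchange factor eIF2B had a log2 fold change of -0.70 (edgeR adjusted p = 0.00442), *Eif2b5* of the same complex -0.28 (edgeR adjusted p = 0.0401) and *Gcn1l1*, an activator of GCN2, -0.34 (edgeR adjusted p = 0.0439). *Eif2b5* missed the cutoff without EV-RV replicate 2 and without IRF4-RV replicate 1 (edgeR adjusted p = 0.117 and 0.247), and *Gcn1l1* without EV-RV replicate 1 and without IRF4-RV replicate 2 (edgeR adjusted p = 0.165 and 0.212). The excess of lower over higher calls in this list held without EV-RV replicate 1 but not when any other single library was left out. With EV-RV replicate 1 or 2 left out, the median log2 fold change of the list was 0.0033 or 0.048. With IRF4-RV replicate 1 or 2 left out, this median was -0.048 or 0.026.

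In the other arms of the unfolded protein response, led by IRE1 and ATF6, 10 of 20 genes were higher (against 16% of all genes), 1 lower (against 13.7%) and 9 not called, with a median log2 fold change of 0.22. *Derl3* and *Edem1*, of ER-associated degradation, rose by 1.07 and 0.89 (edgeR adjusted p = 0.00907 and 0.000253), and *Xbp1*, the transcription factor activated by IRE1, rose by 0.82 (edgeR adjusted p = 0.000945). Gene counts do not separate spliced from unspliced *Xbp1*. The lower gene was *Sdf2l1*, an ER chaperone cofactor (log2 fold change -0.25, edgeR adjusted p = 0.0617). It missed the cutoff without EV-RV replicate 2, without IRF4-RV replicate 1 and without IRF4-RV replicate 2 (edgeR adjusted p = 0.229, 0.177 and 0.229).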

How the data were processed

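Per the submitters' processing notes, reads were handled with FastQC 0.11.2, STAR 2.4.0j, featureCounts and DESeq2 1.22.1 on GRCm38. The file deposited by the authors holds raw counts per Ensembl gene. Settings for strand and for multiply aligned reads are not given in the sources used here. The methods name Ensembl 76, and 52083 of 55359 identifiers were matched to GENCODE M21 (GRCm38) for symbols, positions and exon lengths, leaving 3276 unmatched.

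Genes passing filterByExpr were tested with edgeR 4.0.16 in R 4.3.3 (TMM factors, quasi-likelihood F test, Benjamini-Hochberg adjustment over all genes tested, FDR 0.1, no replicate block). The procedure was also run on simulated counts. These had the same spread beyond counting error for every gene, so that run does not measure the error rate of the calls here. The SE given is the absolute log2 fold change divided by the square root of its F statistic. RPKM divide CPM by the union of exons. The 10 genes and the lists were chosen with earlier results of these data known. All 10 genes are given, and from each other list up to 3 called genes at either end with a mean of at least 50 counts, except 1 that is not reported here. Most genes outside this rule are said to be chosen after their values were seen. *Eif2ak4*, *Gldc* and *Cbs* were not selected by the rule either, nor were the markers, *Irf4* and the pseudogene *Phgdh-ps1*. Alternatives were DESeq2 1.42.0 (the study's tool), its size factors, library size only, other filters, the replicate block, an FDR of 0.05, the longest transcript as length and leaving out each library.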

Additional observations from a re-analysis of the deposited data

How the results depend on the processing

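Of 110 log2 fold changes of the 10 genes under alternatives, 103 kept their direction and their side of the cutoff. *Atf4*, *Trib3*, *Phgdh*, *Shmt1* and *Shmt2* were called lower in each alternative, with highest adjusted p-values (edgeR or DESeq2) of 0.0103, 0.054, 0.0316, 0.00275 and 0.0161. Leaving out single libraries gave log2 fold changes from -0.16 to 0.94 for *Asns*, from -0.19 to 0.028 for *Psat1* and from -0.14 to 0.0221 for *Psph*, so that these signs rest on single libraries. *Psph* was at 0.0078 without IRF4-RV replicate 2. Called lower were 5 to 7 of the 10 genes, against 6.56% to 20.3% of all genes, and 3347 to 6394 genes in all. *Asns*, *Ddit3*, *Trib3* and *Chac1* are limited by low counts. With the length of the longest transcript, the *Phgdh* to *Psat1* ratio was 1.57 with EV-RV and 1.21 with IRF4-RV, against 1.94 and 1.5 with exon length.

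Replicate numbers were shared by the groups, and the correlation of deviations from the group mean between libraries of the same number was 0.284 (Pearson's r across 14637 genes). With 2 pairs and no such statement in the labels, the numbers were not taken as pairing. With the replicate block 6394 genes were called in place of 4349, *Ddit3* was called (edgeR adjusted p = 0.0958), and 13 of 19 genes upstream of ATF4 were called in place of 8, against 5 to 8 without single libraries. These 13 were 7 higher and 6 lower, against 3 and 5 without the block, where the block called 23.4% of all genes higher and 20.3% lower. The block changed no other call of the 10 genes.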

Other observations

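*Sardh*, which removes the methyl group of sarcosine, was chosen after its values were seen. Its counts were 12 and 9 in EV-RV libraries and 10 and 33 in IRF4-RV libraries, so that IRF4-RV replicate 2 was the highest library, as for *Asns* and *Aldh1l1* (log2 fold change 0.90, edgeR adjusted p = 0.352). The 14 folate and serine genes below the filter had 0 to 9 counts in a library, and the 7 ATF4 targets below it 0 to 11. Among them were *Gldc*, the decarboxylase of glycine cleavage, with at most 4 counts, and *Cbs*, which directs homocysteine to cysteine, with 4 to 9 counts.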
